A study of Mus musculus with 14 samples.

Results

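The heat shock proteins and chaperones Hspa1a, Hspa1b, Hspa8, Hspa5, Hsp90aa1, Hsp90ab1, Dnajb1, Hsph1, Hspd1 and Hspe1 were followed in regulatory T cells (Tregs), the Foxp3-expressing CD4 T cells that restrain other immune cells. Each was read by 1 transcript cluster (the probes that report 1 gene) of the Clariom S mouse array, so that 10 of 10 genes were measured, among 22203 transcript clusters in all. They were chosen by name as heat shock proteins and partners, and the choice was made because Hspa1a and Hspa1b had already been seen to move with the knockout label on these same arrays. Differences between genotypes are therefore given for the 10 genes as a description with no test, and the comparison of Treg subsets, which did not enter the choice, is tested.

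RNA came from mixed bone marrow chimeras. CD45.2+ marrow of Foxp3Cre Atg14+/fl donors (the control, labelled het) or Foxp3Cre Atg14fl/fl donors (labelled KO) was mixed 1:1 with CD45.1+ wild-type marrow, and the mixture was given to sublethally irradiated Rag1-/- mice, which have no T or B cells of their own but keep their myeloid cells, and left to reconstitute for 6 to 8 weeks. In both groups Cre is made from the Foxp3 locus and so acts in Tregs, and the controls also carry 1 loxP-flanked Atg14 allele. Atg14 is a subunit of a Vps34 lipid kinase complex that starts autophagy. CD45.2+ CD4+ Foxp3-YFP+ cells were sorted as central Tregs (cTregs, CD44 low and CD62L high) or effector Tregs (eTregs, CD44 high and CD62L low), with 4 control cTreg, 3 KO cTreg, 4 control eTreg and 3 KO eTreg arrays. The age of the chimeras is not given in the sources used here, and the series text names spleen with peripheral lymph nodes as the source where the study's methods name spleen.

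Chaperones hold unfolded proteins and help them to fold. HSP70 proteins bind short exposed stretches of a client in cycles of ATP hydrolysis that J-domain proteins such as Dnajb1 start and exchange factors such as Hsph1 end, HSP90 proteins act later on selected clients such as kinases and steroid receptors, and the Hspd1 and Hspe1 chaperonin forms a folding chamber in mitochondria. Under heat or other protein stress the transcription factor HSF1 binds heat shock elements, which are inverted repeats of the unit GAA, and turns on the inducible genes of the family, and Hspa1a and Hspa1b are the best known of these. Hspa5 (BiP), the HSP70 of the endoplasmic reticulum, answers mainly to the unfolded protein response of that compartment.

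The sort and the labels were read from the arrays first. Foxp3 and Cd4 averaged 12.81 to 12.90 and 12.55 to 12.70 in the 4 groups, all log2 signal, and Il2ra, a further Treg marker, averaged only 7.42 to 7.92 where the median signal of the background probes was 6.12. Of the markers fixed for the subsets, 5 of 5 cTreg genes were lower and 6 of 6 eTreg genes were higher in eTregs (limma, adjusted P below 0.05). Atg14 was not lower where the label says KO. It averaged 8.94 in control and 9.29 in KO cTregs, and 8.84 in control and 9.16 in KO eTregs (limma adjusted P = 1.00 and 0.550, unadjusted P = 0.021 and 0.032). The study checked the deletion by quantitative PCR in Tregs sorted from Foxp3Cre Atg14fl/fl mice, which are not these chimeras. Whether the Atg14 probes lie in the deleted part of the gene is not given in the sources used here. The arrays are therefore called labelled KO, and every direction by genotype rests on that label. The pair of arrays labelled KO that carry the number 1 stood apart, with the lowest quality weights of the 14 (0.357 for cTregs and 0.389 for eTregs, where the other 12 ran from 0.485 to 2.20). The eTreg array of that pair also had the lowest mean of the eTreg markers among eTreg arrays (9.53, against 10.29 to 10.87). The other 2 eTreg arrays labelled KO had raised signals of monocyte and macrophage genes, described below beside Hspa1a.

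Hspa1a and Hspa1b, the inducible cytosolic HSP70 genes, are near-identical neighbours. In the RefSeq gene table of GRCm38.p6 they lie on chromosome 17, both on the minus strand, at chr17:34969359-34972156 and chr17:34956429-34959238, with 10120 bases between them. Their promoters are shown because they make plain how alike the 2 copies are. These are the 250 bases before each transcription start in RefSeq (GRCm38.p6), at chr17:34972157-34972406 and chr17:34959239-34959488 on the minus strand, with the heat shock element pair in capitals.
Hspa1a: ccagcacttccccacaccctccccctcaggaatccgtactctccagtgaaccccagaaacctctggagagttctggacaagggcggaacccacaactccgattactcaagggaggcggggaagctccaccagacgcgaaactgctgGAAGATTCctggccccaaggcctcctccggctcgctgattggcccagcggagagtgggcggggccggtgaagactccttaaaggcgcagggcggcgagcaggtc
Hspa1b: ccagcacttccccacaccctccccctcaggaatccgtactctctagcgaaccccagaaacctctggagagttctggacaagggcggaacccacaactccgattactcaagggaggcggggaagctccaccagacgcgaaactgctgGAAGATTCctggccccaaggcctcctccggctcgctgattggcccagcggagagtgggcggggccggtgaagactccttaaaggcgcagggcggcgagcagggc
The windows are the same at 247 of 250 positions (98.8%), and the 3 differences, with the base of Hspa1a first and positions counted from 1 at the 5′ end, are C44T, T47C and T249G. Each holds 1 pair of inverted units, searched as GAANNTTC or TTCNNGAA (each reads the same on both strands), which starts 104 bases before the transcription start. Such a pair was present in 12.8% of the 32851 promoter windows of the same length in the table, and 3 successive units, searched as GAANNTTC followed by NNGAA or TTCNNGAA followed by NNTTC, in 0.466%. Copies this alike can share probes, so the 2 readouts are not taken as independent measurements.

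Hspa1a was low on 4 of the 6 arrays labelled KO and at the control level on the other 2. In cTregs the control arrays numbered 1 to 4 read 12.26, 11.76, 12.50 and 12.49 and the arrays labelled KO, numbered 1 to 3, read 12.22, 10.68 and 10.82. In eTregs the controls read 12.29, 12.00, 12.47 and 12.39 and the arrays labelled KO 12.26, 10.69 and 11.34. The groups overlapped in both subsets, and in each of them the array labelled KO with the number 1 was the one that lay among the controls. The mean difference, KO minus control, was −1.01 ± 0.35 (SE) in cTregs and −0.86 ± 0.35 in eTregs, which are 2.01-fold and 1.81-fold lower signals. Without the array numbered 1 it was −1.50 in cTregs and −1.27 in eTregs, and without the array numbered 2 it was −0.73 and −0.49.

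Hspa1b followed the same order. In cTregs it read 9.23, 8.74, 9.46 and 9.36 in controls and 9.08, 8.23 and 8.32 on arrays labelled KO. In eTregs it read 9.14, 8.98, 9.29 and 9.26 in controls and 9.10, 8.36 and 8.45 on arrays labelled KO. Again the groups overlapped in both subsets through the arrays labelled KO that carry the number 1. The difference was −0.65 ± 0.22 (SE) in cTregs and −0.53 ± 0.22 in eTregs, or 1.57-fold and 1.45-fold lower. Over the 14 arrays Hspa1a and Hspa1b correlated with r = 0.98, and with r = 0.96 after the group means were removed.

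**Figure D1:**
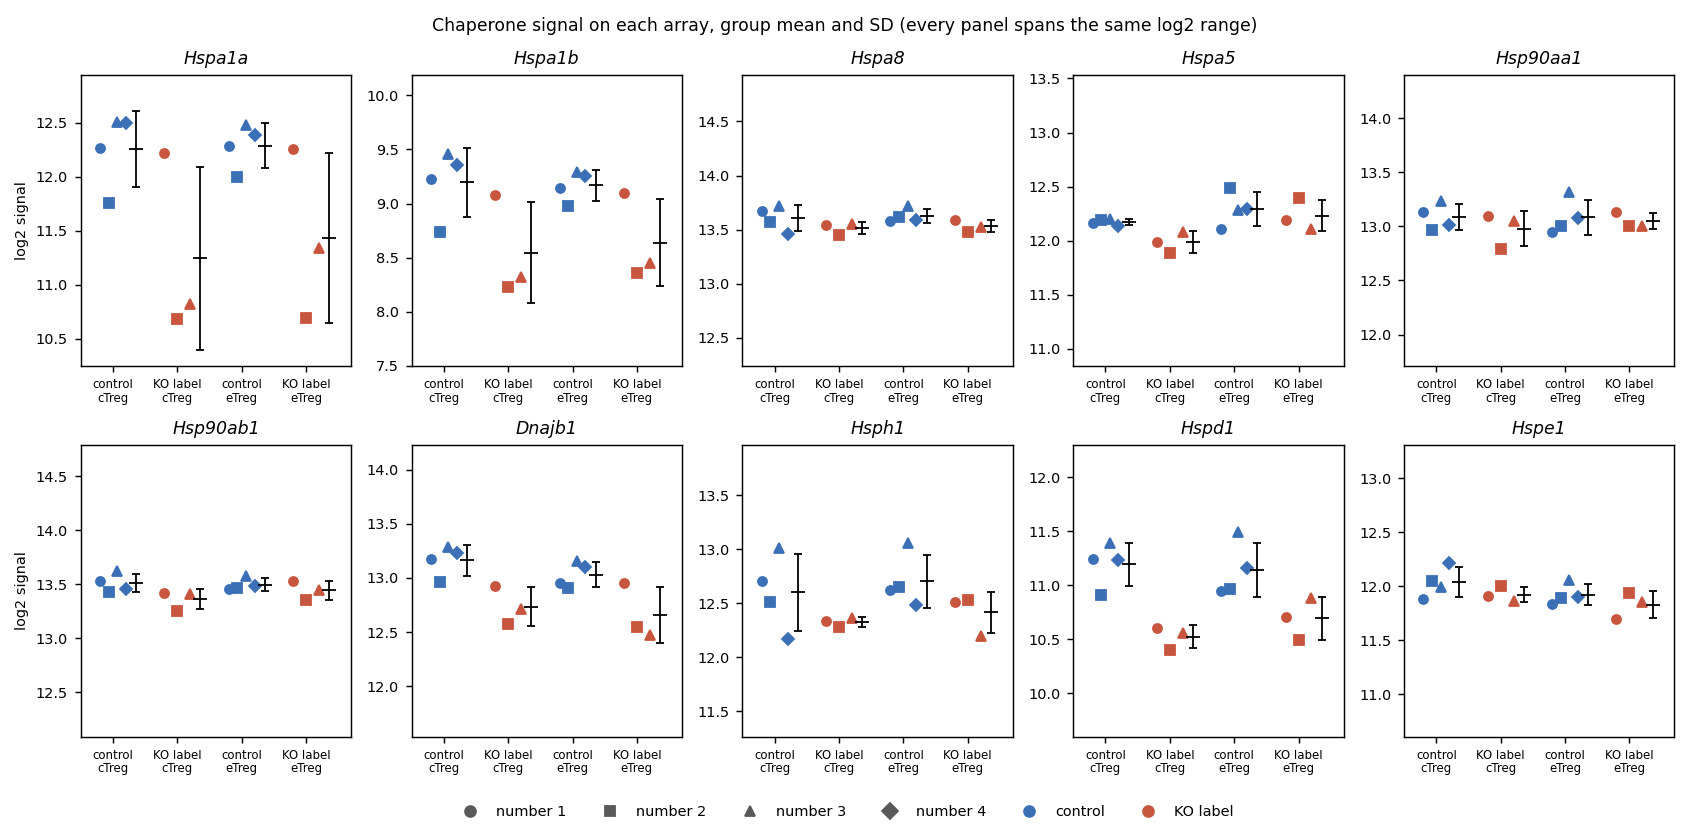
Log2 signal (y axis) of each of the 10 chaperone genes on each of the 14 arrays, by group (x axis); the marker shape gives the array number in the labels, blue is control, red is labelled KO, and the black bar is the group mean ± SD. Hspa1a, Hspa1b and Dnajb1 show 2 low red points in each subset with the array numbered 1 above them. Hspd1 shows all red points below the blue points of their subset, with a narrow gap in eTregs.

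Dnajb1, the J-domain partner that hands clients to cytosolic HSP70, moved with Hspa1a and Hspa1b over a smaller range. In cTregs it read 13.17, 12.96, 13.29 and 13.23 in controls and 12.92, 12.57 and 12.71 on arrays labelled KO, with no overlap. In eTregs it read 12.95, 12.91, 13.16 and 13.10 in controls and 12.95, 12.55 and 12.47 on arrays labelled KO, and here the array numbered 1 lay within the controls. The difference was −0.43 ± 0.13 (SE) in cTregs and −0.37 ± 0.13 in eTregs. Its correlation with Hspa1b was r = 0.93, both over all arrays and within groups. The promoter window of Dnajb1 held no match to the heat shock element pair at either of its 2 RefSeq starts, which says only that these letters are absent from the window.

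Hspd1 (HSP60) and Hspe1 (HSP10), the 2 parts of the mitochondrial chaperonin, had differences of unlike size, which were not tested against each other. Hspd1 read 11.24, 10.91, 11.39 and 11.23 in control cTregs and 10.61, 10.40 and 10.56 in cTregs labelled KO. In eTregs it read 10.95, 10.96, 11.49 and 11.16 in controls and 10.70, 10.49 and 10.88 on arrays labelled KO. It was the one member whose arrays did not overlap in either subset, the arrays numbered 1 included, with differences of −0.67 ± 0.15 (SE) in cTregs and −0.45 ± 0.15 in eTregs (1.59-fold and 1.36-fold lower). In eTregs the gap was narrow, between 10.88 (labelled KO) and 10.95 (control). With arrays centred on their medians Hspd1 overlapped there too. Hspe1 lay between 11.83 and 12.22 in controls and between 11.70 and 12.00 on arrays labelled KO, with overlap in both subsets and differences of −0.11 ± 0.11 and −0.09 ± 0.11. The correlation between the 2 genes was r = 0.38 over the arrays and 0.11 within groups.

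The sequence between them is shown because the 2 genes are read in opposite directions from starts that are close together. The stretch below is chr1:55087933-55088147 of GRCm38.p6, plus strand, 215 bases long, from RefSeq. It reaches from 1 of 2 annotated Hspd1 starts, which runs to the left, to the Hspe1 start, which runs to the right. The other Hspd1 start lies beyond that of Hspe1, at position 55088243, so that from there the 2 genes overlap.
Hspd1-Hspe1: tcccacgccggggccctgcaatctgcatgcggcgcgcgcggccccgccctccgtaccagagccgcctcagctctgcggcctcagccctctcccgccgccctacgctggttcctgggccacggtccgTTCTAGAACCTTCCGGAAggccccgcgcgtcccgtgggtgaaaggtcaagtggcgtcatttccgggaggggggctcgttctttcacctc
The capitals mark 18 bases in which 3 overlapping pairs, or 2 overlapping matches of 3 units, were found, 126 bases from that Hspd1 start and 71 bases from the Hspe1 start. The same letters thus lie in the windows of both genes.

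Hsph1, the HSP110 exchange factor of HSP70, varied widely among the controls. It spanned 12.17 to 13.02 in control cTregs and 12.48 to 13.06 in control eTregs, against 12.28 to 12.37 and 12.20 to 12.54 on arrays labelled KO. The differences of −0.27 ± 0.17 (SE) in cTregs and −0.29 ± 0.17 in eTregs were smaller than the range of the controls of either subset. In cTregs the difference was −0.13 without the control array numbered 3 and −0.42 without that numbered 4, and in eTregs it was −0.17 without the control array numbered 3. Its correlation with Hspa1a plus Hspa1b (the mean of the 2) was r = 0.47, and 0.14 within groups, and it went with Hspa8 (r = 0.88, and 0.83 within groups).

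The other cytosolic members varied little. Hspa8, the HSP70 that cells make at all times and that also serves chaperone-mediated autophagy, lay between 13.45 and 13.72 on every array, with differences of −0.09 ± 0.09 (SE) in both cTregs and eTregs. Hsp90ab1, the constitutive cytosolic HSP90, differed by −0.15 ± 0.09 in cTregs, without overlap, and by −0.05 ± 0.09 in eTregs. Hsp90aa1, its stress-inducible counterpart, differed by −0.11 ± 0.12 and −0.04 ± 0.12 with overlap in both. These 2 genes followed each other across the arrays (r = 0.88, and 0.91 within groups).

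Hspa5 (BiP) and Hspe1 were the members least correlated with the mean of Hspa1a and Hspa1b, with r = 0.22 and 0.14 over the arrays and −0.25 for each within groups. In cTregs Hspa5 read 12.17, 12.19, 12.20 and 12.13 in controls and 11.99, 11.88 and 12.08 on arrays labelled KO, without overlap, for a difference of −0.19 ± 0.11 (SE). In eTregs it read 12.10, 12.49, 12.28 and 12.30 in controls and 12.19, 12.39 and 12.11 on arrays labelled KO, a difference of −0.06 ± 0.11. Its promoter is printed because it differs in kind from the others. The window is chr2:34771840-34772089, plus strand (RefSeq, GRCm38.p6), with an endoplasmic reticulum stress element in capitals, searched as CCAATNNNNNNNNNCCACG on both strands and present in 0.113% of all windows.
Hspa5: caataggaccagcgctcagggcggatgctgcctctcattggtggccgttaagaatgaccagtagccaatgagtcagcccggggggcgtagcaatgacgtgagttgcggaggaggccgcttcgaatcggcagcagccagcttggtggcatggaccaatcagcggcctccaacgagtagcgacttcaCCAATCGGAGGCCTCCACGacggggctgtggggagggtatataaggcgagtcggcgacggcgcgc
This element starts 65 bases before the transcription start, and the window held no heat shock element pair. Of the 10 members 7 had a promoter in the table, and 5 of the 7 (Hspa1a, Hspa1b, Hsph1, Hspd1 and Hspe1) held at least 1 pair.

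Seen together, all 10 members had a lower mean on arrays labelled KO in both subsets, as did 55.8% of all transcript clusters in eTregs and 45.2% in cTregs. In eTregs this sign rested on 1 array for 2 members, since the difference was 0.04 for Hsp90aa1 without the control array numbered 3 and 0.0034 for Hspa5 without the control array numbered 2. The median of the 10 differences was −0.23 in cTregs, where that of all transcript clusters was 0.02, and −0.19 in eTregs, where that of all was −0.02. The arrays labelled KO lay below the controls without overlap for 4 of 10 members in cTregs (Hspa5, Hsp90ab1, Dnajb1 and Hspd1) and for 1 of 10 in eTregs (Hspd1), where the share of all transcript clusters was 2.35% and 3.84%. With the array numbered 1 left out of the group labelled KO the counts were 6 of 10 in cTregs, where Hspa1a and Hspa1b joined the 4, and 6 of 10 in eTregs, where Hspa1a, Hspa1b, Hspa8, Hsp90ab1 and Dnajb1 joined Hspd1. With 1 array fewer, absence of overlap is also commoner among all transcript clusters, at 8.11% and 14.5%. Since the genotype contrast entered the choice of the genes, nothing is read from these counts.

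**Figure D2:**
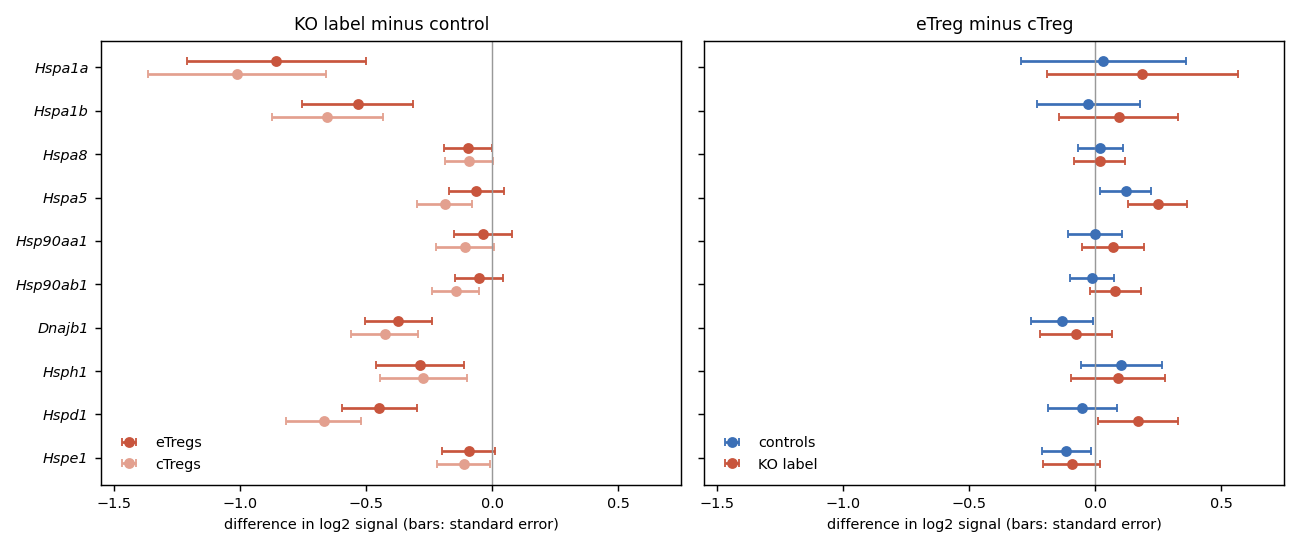
Difference in log2 signal (x axis) for each chaperone gene (y axis), with bars of 1 standard error: left, arrays labelled KO minus controls in eTregs (dark) and cTregs (light); right, eTreg minus cTreg in controls (blue) and in arrays labelled KO (red). On the left all points lie below 0, from −1.01 to −0.04, and on the right they lie between −0.13 and 0.25.

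The comparison of the 2 subsets asks whether chaperone transcripts differ between resting and activated Tregs, and it found little. In limma 0 of 10 members passed adjusted P below 0.05 in controls, in arrays labelled KO, or in the average of both, where 3.58%, 2.43% and 6.75% of all transcript clusters passed. At an unadjusted P below 0.05 the counts were 0, 1 and 1, and the 1 was Hspa5 each time. Of all 22203 transcript clusters 2852, 3056 and 3852 passed at that level, in the same order. Hspa5 was 0.18 ± 0.08 (SE) higher in eTregs on average (1.14-fold, adjusted P = 0.213) and 0.25 ± 0.12 higher in those labelled KO (adjusted P = 0.362), whose 3 eTreg arrays all lay above the 3 cTreg arrays. For Hspa1a the averaged difference was 0.11 with a 95% interval from −0.42 to 0.64, and for Hspa1b it was 0.03, from −0.30 to 0.36, so that a moderate change in either direction was not detectable in this fit, which counts the variation between array numbers as error. The intervals were narrower for Hspa8 (0.02, from −0.12 to 0.16), Hsp90ab1 (0.03, from −0.11 to 0.17) and Hspe1 (−0.10, from −0.26 to 0.05). The study's figure legend gives 4 control and 3 Atg14fl/fl chimeras as the source of both subsets. Arrays of the 2 subsets thus need not be independent, and the labels do not say which of them share a chimera. The fit treats all arrays as independent, so P values measure the spread between these arrays.

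While the subsets differed little, arrays that carry the same number read alike for the inducible genes. The labels do not say whether a cTreg and an eTreg array with the same number come from the same chimera. For Hspa1a the eTreg array differed from the cTreg array of its number by −0.11 to 0.52, with a median of 0.02 over the 7 numbers, while the arrays labelled KO spanned 10.68 to 12.26. For Hspa1b the same differences ran from −0.17 to 0.24 with a median of 0.02, and for Dnajb1 from −0.24 to 0.03. Of the whole variation of Hspa1a over the 14 arrays (sum of squares), 48.0% lay between the genotype labels, 49.2% between numbers within a label, 0.54% between subsets and 2.18% elsewhere. Over all transcript clusters the median share between numbers within a label was 42.9%, so that the 49.2% of Hspa1a was near the usual share. The elsewhere share was 2.83% for Hspa1b and 3.41% for Dnajb1, with a median of 34.2% over all transcript clusters. Numbers within a label hold 5 of the 13 degrees of freedom and elsewhere 6. Hspa5 again differed, with 33.9% of its variation between subsets and 34.2% elsewhere. The array number and the level of Hspa1a were thus hard to tell apart among arrays labelled KO, since in both subsets number 1 was high and numbers 2 and 3 were low.

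**Figure D3:**
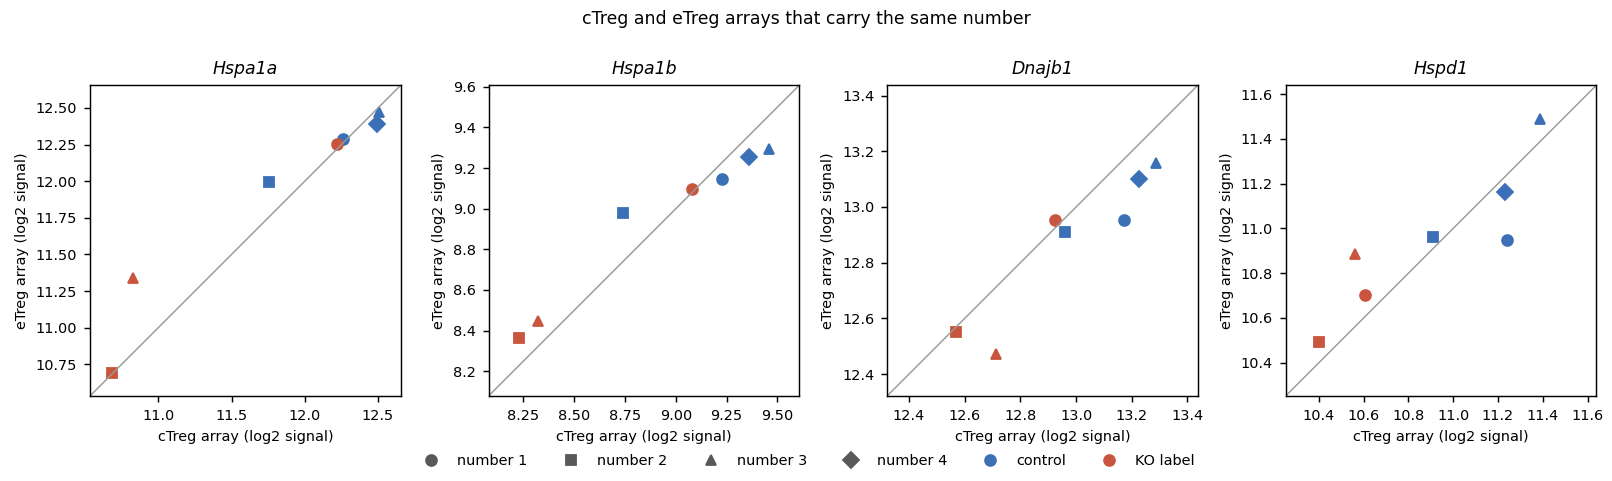
Log2 signal of 4 chaperone genes on the eTreg array (y axis) against the cTreg array (x axis) that carries the same number and genotype label, with the line of equal values; blue is control, red is labelled KO, and the shape gives the number. For Hspa1a the points lie within −0.11 to 0.52 of the line, and the red circle (labelled KO, number 1) lies among the blue points in the panels of Hspa1a and Hspa1b, below the blue points on the x axis for Dnajb1 and below them on both axes for Hspd1.

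Signals of some other cell types moved with the eTreg values. The mean of 11 monocyte and macrophage genes was 8.54 on the eTreg array labelled KO with the number 1, and 10.63 and 10.66 on those numbered 2 and 3, against 8.78 to 9.20 in control eTregs. All 11 of these genes had a higher mean in eTregs labelled KO (median difference 1.02; limma called 0 of them, and 8 had an unadjusted P below 0.05), and none of the 11 was at or below the background signal on any eTreg array. The 2 eTreg arrays with the highest myeloid signal were thus the 2 with the lowest Hspa1a. The mean of 7 Treg and T cell genes was 12.14, 12.10 and 12.05 on the eTreg arrays labelled KO, in the order of the numbers. In control eTregs it was 11.99 to 12.23. In a bulk sample fewer Tregs and less chaperone RNA per Treg cannot be told apart. Dendritic and plasmacytoid dendritic cell genes averaged 8.46, 9.02 and 9.20 on the eTreg arrays labelled KO, in the order of the numbers, against 8.38 to 8.54 in control eTregs. Of these 8 genes 5 had a higher mean in eTregs labelled KO and limma called 1, Siglech, a plasmacytoid marker (1.78, adjusted P = 0.000483). The mean of 6 CD8 T and NK cell genes was 8.57, 9.31 and 9.14 against 8.54 to 8.99, with 5 of 6 higher and 0 called by limma (1 at an unadjusted P below 0.05). Between genotypes in eTregs 1782 of all 22203 transcript clusters had an unadjusted P below 0.05. In eTregs labelled KO 4 of 5 B cell, 3 of 6 neutrophil and 0 of 5 erythroid genes had a higher mean. Their median differences were 0.26, −0.02 and −0.19, and limma called 0 of them. The erythroid median was −0.16 in cTregs, where 2 of 5 were higher. In cTregs the myeloid mean stayed between 8.09 and 8.40 on all 7 arrays, and the cTreg arrays labelled KO with the numbers 2 and 3 (both 8.40) read 10.68 and 10.82 for Hspa1a, while that numbered 1 (8.26) read 12.22. Those 2 arrays thus had the highest myeloid mean of the cTreg arrays as well, over a narrow range (controls 8.09 to 8.26), and the part of other cell types in the chaperone values was not tested.

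**Figure D4:**
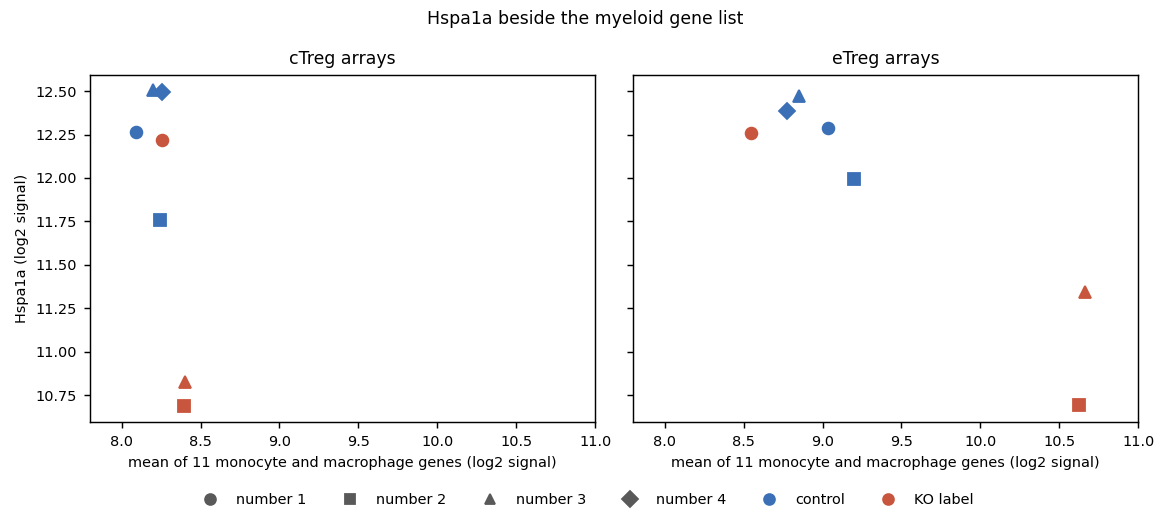
Log2 signal of Hspa1a (y axis) against the mean log2 signal of 11 monocyte and macrophage genes (x axis) on cTreg arrays (left) and eTreg arrays (right); blue is control, red is labelled KO, and the shape gives the array number. The low red points sit at 8.40 on the x axis in cTregs and at 10.63 and 10.66 in eTregs.

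The list mean of other signals that can follow handling varied less than Hspa1a, and averaging over genes itself narrows a range. The mean of 10 immediate early genes such as Fos, Jun and Egr1, which rise when cells are dissociated, lay between 11.64 and 11.90 on all 14 arrays. Single genes of the list varied more, with an SD of up to 0.60 (Atf3 in eTregs labelled KO). Limma called 0 of the 10 between genotypes in either subset. Their means on the arrays labelled KO were 11.87, 11.79 and 11.64 in cTregs and 11.90, 11.84 and 11.76 in eTregs, in the order of the numbers. The arrays numbered 1 were the highest of the 3 in both subsets, as they were for Hspa1a, over a range of 0.23 or less, and the part of handling in the chaperone values was not tested. Plasma cell genes, which include the secretory factor Xbp1, averaged 8.81, 9.48 and 9.59 in eTregs labelled KO and 8.61 to 9.07 in control eTregs, and their part was not tested either. The median signal of all transcript clusters ran from 8.77 to 8.90 over the arrays. Quantile normalization holds these medians close, so they say nothing about handling.

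The genes that RefSeq places beside the HSP70 pair moved over a narrower range. The 2 nearest measured genes on either side along chromosome 17 are Slc44a4 and Neu1 below Hspa1b and Hspa1l and Lsm2 above Hspa1a, and they were looked at after the values of the pair were known. Hspa1l, a testis-enriched HSP70 gene that starts just beyond Hspa1a, read 7.34, 7.18 and 7.70 in cTregs and 7.09, 6.93 and 7.76 in eTregs labelled KO, against 6.88 to 7.47 in controls. Slc44a4 read 7.96, 7.57 and 7.62 in cTregs and 7.90, 7.41 and 7.45 in eTregs labelled KO, the array numbered 1 the highest of each 3 as for Hspa1a, against 7.35 to 7.87 in controls. Neu1 stayed between 9.90 and 10.43 and Lsm2 between 9.19 and 9.88 on all arrays. The transcript cluster most like the mean of Hspa1a and Hspa1b, members left out, was the predicted gene Gm20481, with r = 0.96 both over the 14 arrays and within groups. It read 11.51, 10.04 and 10.30 in cTregs and 12.25, 10.41 and 11.04 in eTregs labelled KO, and 11.42 to 12.23 in controls, so that its arrays numbered 1 were again the highest of each 3. Over all arrays it ranged from 10.04 to 12.25, where Hspa1a ranged from 10.68 to 12.50. No position for it is held by the RefSeq table. Its cluster identifier on the array comes directly before that of Hspa1l in the chromosome 17 series, so it may lie beside the pair. Whether its probes share sequence with the pair was not tested. Dnajb1 ranked between Gm20481 and Kctd14. The next most like over the arrays were Kctd14 (r = 0.89), Gm438 (0.86), Olfr476 (0.85) and C030037F17Rik (0.84). In that order they averaged 8.74, 7.61, 6.66 and 7.41, where background probes read 6.12, and their rank correlations were 0.70, 0.67, 0.81 and 0.69. Within groups the 5 most like included, after Gm20481, Ceacam15 (r = 0.95), Lhx3 (0.93) and Slc22a7 (0.92), none of which was among the 5 over all arrays. These averaged 9.52, 7.71 and 6.73.

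The wider chaperone network was read from 116 further genes in 9 roles, all of them on the array. Between genotypes limma called 0 of 116 in eTregs and 0 of 116 in cTregs, where 0.117% and 0.045% of all transcript clusters were called. In each subset 7 of the 116 had an unadjusted P below 0.05. Of all 22203 transcript clusters 1782 did so in eTregs and 890 in cTregs. The median difference was 0.02 in eTregs and −0.03 in cTregs. The smallest adjusted P in eTregs was that of the small heat shock protein Hspb6 (0.60 ± 0.13 SE, adjusted P = 0.104). In cTregs it was that of Calr, which encodes calreticulin, a lectin chaperone of the endoplasmic reticulum (−0.45 ± 0.11, adjusted P = 0.791). Dnaja4, a cytosolic J-domain protein, was the J-domain gene with the largest difference in both subsets. It was −0.63 ± 0.16 for eTregs (adjusted P = 0.196) and −0.58 ± 0.16 for cTregs (adjusted P = 1.00). With the eTreg array labelled KO and numbered 1 left out, Hspb6 and Dnaja4 passed in eTregs. Hsf2, the heat shock factor with the largest differences, was 0.49 ± 0.23 higher in eTregs and 0.29 ± 0.23 lower in cTregs labelled KO, and neither passed (adjusted P = 0.602 and 1.00).

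Between subsets 4 of the 116 genes passed in the average of both genotypes, 2 in each direction, beside 6.75% of all transcript clusters. Atf6, a membrane-bound sensor of the unfolded protein response, rose by 0.98 ± 0.09 (SE) in eTregs (adjusted P = 3.52e-06). Its group means were 10.71 in control and 10.40 in KO cTregs and 11.54 and 11.53 in the eTregs. Fkbp5, a glucocorticoid-induced co-chaperone of HSP90, rose by 0.66 ± 0.15 (adjusted P = 0.0107), and its relative Fkbp4 fell by 0.27 ± 0.08 (adjusted P = 0.0408). Bag5, an exchange factor of HSP70, fell by 0.64 ± 0.13 (adjusted P = 0.0059). Atf6, Fkbp5 and Bag5 passed whichever array was left out, and Fkbp4 failed in 11 of these 14 fits. In the same contrast 11 of 11 monocyte and macrophage genes had a higher mean in eTregs and limma called 8 of them (median 1.15), and the part of other cell types in these 4 changes was not tested. In controls alone 3 of the 116 genes passed (Atf6, Fkbp5 and Bag5), beside 3.58% of all transcript clusters. In arrays labelled KO only Atf6 did (1.14, adjusted P = 0.000245), beside 2.43% of all. Partners of Hspa5 in the endoplasmic reticulum did not pass in the average and did not all move alike. The exchange factors Hyou1 and Sil1 were at 0.08 and −0.10. The J-domain proteins Dnajb9, Dnajb11, Dnajc1, Dnajc3 and Dnajc10 were at −0.20, 0.08, 0.18, −0.08 and 0.08. Hsp90b1 (GRP94), the HSP90 of the endoplasmic reticulum, was at 0.22 ± 0.07 (adjusted P = 0.0907). Sdf2l1, a component of chaperone complexes there, was at 0.31 ± 0.10 (adjusted P = 0.089). Hsp90b1 and Sdf2l1 passed without the eTreg array labelled KO and numbered 1, Hsp90b1 also passed with a mean-variance trend, and Sdf2l1 with array weights. Limma called 0 of the 22 J-domain proteins, 14 chaperonin and prefoldin subunits, 10 small heat shock proteins, 10 HSP70 and HSP110 genes, 10 mitochondrial proteases and import factors, 5 heat shock factors and 2 HSP90 genes. In the same order 3, 1, 1, 0, 1, 0 and 2 of them had an unadjusted P below 0.05. Of all 22203 transcript clusters 3852 did so in this averaged contrast. With array weights 2 J-domain genes, Dnaja4 and Dnajc21, passed.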

How the data were processed

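The deposited values were log2 signals, which the authors obtained by robust multi-array average in Affymetrix Expression Console 1.1; this corrects the background, quantile normalizes all arrays and combines the probes of a transcript cluster. Of 28846 entries, 6640 control probe sets and 3 without a symbol were left out, and 22203 transcript clusters were fitted without a filter in R 4.3.3 with limma 3.58.1, using lmFit, eBayes and 4 group means (residual degrees of freedom 10, prior 5.65). P values are two-sided and were adjusted by Benjamini-Hochberg over all 22203. A gene was called at an adjusted P below 0.05. Standard errors and 95% intervals come from the same fit, which was tested on simulated data.

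Members and lists were chosen with earlier results of these data known, and lists were written by role from general knowledge. Named were all members, Atg14, sort genes, called network genes (or the largest difference of a role) and the 5 clusters most correlated with the mean of Hspa1a and Hspa1b, with and without group means (1 of these is not reported here); other genes were named after their values were seen. Alternatives were a mean-variance trend, array weights, 2 centrings, 2 filters on low signal, fits of the compared groups alone, all rows of a symbol, the replicate block and the omission of each array. Omission of both arrays labelled KO with the number 1 was added after seeing the data. The number of arrays limits the precision. The build behind the array is not given in the sources used here; sequences and positions are RefSeq's on GRCm38.p6. Scanner files were not used here.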

Additional observations from a re-analysis of the deposited data

How the results depend on the processing

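No member was called between subsets under any of the alternatives run, in controls, in arrays labelled KO or in the average. The genotype differences of Hspa1a and Hspa1b stayed negative throughout. When each array was left out in turn, Hspa1a ranged from −1.50 to −0.73 in cTregs and from −1.27 to −0.49 in eTregs, and Hspa1b from −0.92 to −0.50 and from −0.76 to −0.40. The count of members below controls without overlap in eTregs, 1, was 0 with arrays centred on their medians, 6 without both arrays labelled KO and numbered 1, and 1 to 6 when each array was left out in turn; the 6 came without the eTreg array labelled KO and numbered 1, and the counts were 2, 3 and 2 without the control eTreg arrays numbered 1, 2 and 4. In cTregs the count, 4, was 2 with arrays centred on their 75th percentiles and 4 to 6 with each array left out. Without the array labelled KO and numbered 1, 14.5% of all transcript clusters lay below controls without overlap in eTregs and 8.11% in cTregs. For the other settings that share is not given here, so nothing is read from these counts. Network genes called between subsets on average, 4, became 9 with array weights, 8 with the filter at the 60th percentile, which keeps 8881 clusters and drops Hspa1b, 8 without both arrays labelled KO and numbered 1, and 3 to 7 with each array left out, with 7 without the eTreg array labelled KO and numbered 1. Network genes called between genotypes in eTregs, 0, became 2 with array weights and without both arrays labelled KO and numbered 1, and 0 to 2 with each array left out. The share of all transcript clusters called under these settings is not given here, so the changed counts are not read as a result about the network. The causes were not tested.

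Same-numbered cTreg and eTreg arrays deviated together with correlations of 0.044 to 0.303 over all transcript clusters, above 0.1 for 5 of 7 numbers, and 12 of 14 arrays correlated best with the array of their own number, a hint from the data that numbers may be shared. The labels do not state it and 2 of the 7 correlations were under 0.1, so the fits have no block. The replicate block raised the network genes called between subsets from 4 to 8 as a fixed term and to 11 as a random term, and changed no call of a member. How many of all transcript clusters were called with the block is not given here, so this rise is not read as particular to the network.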
